A study of Mus musculus with 8 samples.

Results

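The miR-379 to miR-410 cluster is a tandem array of microRNA hairpins on mouse chromosome 12. It was defined here by name, as the 37 precursors from mmu-mir-379 to mmu-mir-410 (written below without the species prefix, as are mmu-mir-541, mmu-mir-411 and all others), and all 37 were found among the 1181 precursors listed in the data. The data are small RNA sequencing values of myoblasts, dividing cells that fuse to form muscle fibres, of C57BL/6J mice that the labels call old or young. There were 4 old and 4 young animals with 1 library each, named old 1 to old 4 and young 1 to young 4 after the numbers in the labels. No allele, treatment or time point separates the groups beside age, the labels give no age in months, and they do not say how the myoblasts were purified or how long they were cultured. The series title concerns miR-431 and the regeneration of old muscle, and the question for this cluster is whether its microRNAs differ between old and young myoblasts.

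The cluster is part of the imprinted Dlk1-Dio3 domain. Its microRNAs, and the long non-coding RNAs Meg3, Rian and Mirg, are made from the maternal chromosome, whereas the protein-coding genes Dlk1, Rtl1 and Dio3 are expressed from the paternal one. A hairpin precursor is cut by Dicer to a short duplex, and 1 or both arms of it (5p and 3p) are loaded into an Argonaute protein, which they guide to messenger RNAs mainly through the seed, bases 2 to 8. The array is known for its high expression in brain and embryo. In skeletal muscle the transcription factor MEF2A is known to activate the noncoding RNAs and microRNAs of the domain during regeneration.

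The 37 hairpins lie within 34.7 kb, at chr12:109709060-109743795 of the GRCm38 assembly (mm10), 36 of them on the plus strand and mir-299b on the minus strand. The Mirg gene, after which the array is often called, covers just part of it. By GENCODE M21, Mirg runs from 109729764 to 109749460 and overlaps 12 members, 8 of them in an exon of a Mirg transcript and 4 (mir-453, mir-154, mir-541 and mir-409) in introns. By RefSeq it starts at 109734981 and overlaps 8. The other 25 members lie upstream of the GENCODE start. All 37 were matched to RefSeq by name, and 69 mature sequences of them were at hand.

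The mature sequences of the 5 most abundant members, of mir-134 and of the members whose seed they share are shown first, since these hold most of the reads described below. Capitals mark the seed, and the sequences are RefSeq's (GRCm38.p6), written 5′ to 3′. The data give 1 value per hairpin and do not say which arm was read.
miR-541-5p: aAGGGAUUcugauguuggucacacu
miR-541-3p: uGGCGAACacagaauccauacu
miR-411-5p: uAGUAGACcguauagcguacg
miR-411-3p: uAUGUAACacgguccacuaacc
miR-379-5p: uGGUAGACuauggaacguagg
miR-379-3p: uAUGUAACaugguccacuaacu
miR-1193-5p: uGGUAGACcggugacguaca
miR-409-5p: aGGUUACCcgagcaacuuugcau
miR-409-3p: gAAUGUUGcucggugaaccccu
miR-381-5p: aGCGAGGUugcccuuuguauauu
miR-381-3p: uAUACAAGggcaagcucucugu
miR-300-3p: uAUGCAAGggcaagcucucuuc
miR-410-5p: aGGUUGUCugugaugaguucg
miR-410-3p: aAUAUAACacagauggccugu
miR-494-5p: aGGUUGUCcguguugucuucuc
miR-134-5p: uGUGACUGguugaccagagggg
miR-134-3p: cUGUGGGCcaccuagucacc
Among the 69 mature sequences there were 63 different seeds, of which 6 occurred in a pair of sequences and 57 in one. Just 1 sequence was at hand for mir-376c, mir-487b and mir-539 (5p), mir-485 (3p) and mir-453. Seeds of arms not at hand are missing from these counts and from the sequences shown. miR-379-3p and miR-411-3p have the same seed, as do miR-379-5p and miR-1193-5p, and miR-410-5p and miR-494-5p. The other pairs are miR-299a-3p with miR-299b-3p, miR-758-5p with miR-1197-5p, and miR-376b-5p with miR-376c-5p. No further mouse microRNA in the RefSeq table has any of these 6 seeds. miR-300-3p is shown because it resembles miR-381-3p in most of its length, while its seed differs.

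A pair of members could not be measured apart. mir-299b (49 bases) lies on the minus strand inside mir-299a (63 bases), and its reverse complement is the capital part of the mir-299a hairpin.
mir-299a: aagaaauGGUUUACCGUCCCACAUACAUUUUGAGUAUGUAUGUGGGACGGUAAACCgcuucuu
The values of these hairpins differed by -0.37 to -0.36 (mir-299a minus mir-299b, log2) in all 8 libraries, and the log2 ratio of their lengths is -0.36. Both names thus carry the same reads, so mir-299b was left out of the sums of reads below. The main count and median of the age comparison are also given without it. Other counts, means and medians over members hold both names.

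Each value is a log2 abundance with 2 decimals, and linear values below 1 appear as 0. The low values behave as RPKM, that is, reads scaled by hairpin length and library size. With library sizes of 25.1 to 39.4 M reads, fitted to the values, all 109 to 207 low values of a library (up to 12 reads) fell within 0.1 of a whole read. A level is therefore an amount per hairpin length, and the read numbers below rest on this reading. Hairpins of unlike length can rank otherwise in reads. In old 2, mir-134 (71 bases) exceeded mir-667 (92 bases) in level, 6.75 against 6.47, but had 198.7 against 212.1 reads. Every young library was fitted as larger (30.0 to 39.4 M) than every old one (25.1 to 28.0 M). A level listed at 0 still allows 1 to 4 reads, depending on the hairpin's length and the library.

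Markers of the labelled cell type were abundant. mir-206, a muscle-specific microRNA, measured 14.78 to 16.52, and the mir-1a hairpins, marks of differentiated muscle, 0 to 3.22, while the blood markers mir-142, mir-144 and mir-223 and the epithelial markers mir-200a and mir-429 were at 0 in all 8 libraries. The summed level of 5 fibroblast and smooth muscle markers was 15.36 to 15.84 in old and 14.58 to 15.65 in young libraries, that of 6 muscle markers 16.18 to 16.64 and 15.16 to 17.23, and that of the endothelial marker mir-126a 3.32 to 4.34 and 2.96 to 5.11. The 5 blood markers summed to 3.05 to 4.47 and 1.97 to 4.32, and the 5 epithelial ones to 0.71 to 2.17 and 0 to 3.42. The 6 neural marker precursors of mir-124 and mir-9 summed to 2.20 to 4.49 in old and 2.83 to 4.12 in young libraries (log2). Old 3 (4.49) and young 3 (4.12) had the highest neural sums, and the cluster means given below were highest in the same libraries. The remaining libraries did not follow that order. Young 4, low for the cluster, came next with 3.22, whereas young 1, high for the cluster, had 2.83. No single one of these neural precursors exceeded 3.22. The other markers also set young 4 apart. It had the lowest mir-206 (14.78), both mir-1a hairpins at 0 and the lowest muscle sum (15.16). It alone had a fibroblast and smooth muscle sum (15.47) above its muscle sum. Its mir-126a (5.11) and epithelial sum (3.42) were the highest, while its blood and neural sums were neither highest nor lowest. Whether the other cell types play any part in the cluster's levels was not tested.

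The cluster was high or low as a whole from library to library, and this variation cut across the age labels. The mean over the 24 members abundant enough to be compared was 4.50, 4.70, 8.63 and 4.48 in the old libraries 1 to 4 and 8.14, 6.69, 9.11 and 5.19 in the young libraries 1 to 4 (log2). Old 3 thus stood among the young libraries, 4.07 above the mean of the other old ones (16.7-fold), and young 4 stood near the old libraries, the other young ones lying 6.94-fold above it. Old 3 was the highest old library for all 24 members, young 3 the highest young library for all 24, and young 4 the lowest young library for 22. Both libraries were kept under their deposited labels, and the comparisons of the age groups are also given without them.

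**Figure D1:**
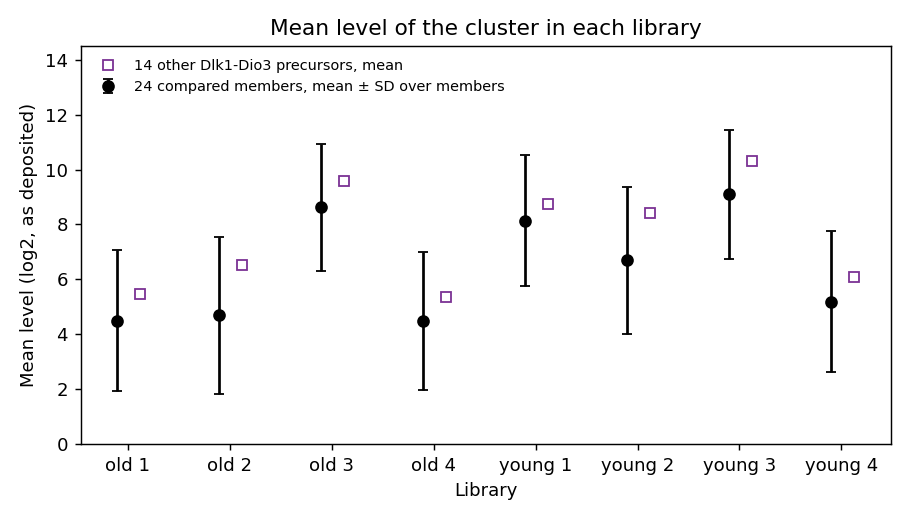
Mean level (log2, as deposited) of the 24 compared members in each of the 8 libraries (black circles, bars show the SD over members) and of 14 other Dlk1-Dio3 precursors (open squares). Old 3 (8.63) sits with young 1 to young 3 (6.69 to 9.11), and young 4 (5.19) lies just above old 1, old 2 and old 4 (4.48 to 4.70).

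The same is seen in reads. Members together took 262, 312, 4173 and 280 RPM (reads per M reads) in old 1 to old 4, and 4210, 1319, 5373 and 469 in the young libraries 1 to 4. This was 0.0262% to 0.537% of a library, or 7041 to 175637 reads. In bulk RNA such a difference may lie in fewer cells that express the cluster or in less RNA per cell, which cannot be told apart. The means were 1257 ± 1944 RPM (old) and 2843 ± 2326 RPM (young; SD, n = 4 each), so the SD exceeded the mean in old libraries and nearly matched it in young ones. Without old 3 and young 4 the means were 285 ± 25.5 RPM and 3634 ± 2087 RPM (SD, n = 3 each). Those libraries were picked by their values for the members, so the wider gap without them is no evidence of a difference with age.

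mir-541 was the most abundant member in all 8 libraries. This hairpin, at chr12:109742409-109742498 in an intron of Mirg by GENCODE, measured 10.80, 11, 14.89 and 11.05 in the old libraries 1 to 4 and 15.14, 13.16, 15.19 and 11.80 in the young libraries 1 to 4. Old 1, old 2 and old 4 lay below every young library, while old 3 lay above young 2 and young 4, so the groups overlapped. The lowest of these values still stands for 4488 reads.

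mir-411, at chr12:109710175-109710256, ranked second in every library. It is a microRNA known in myoblasts as a repressor of Yaf2, a partner of the transcription factor YY1. Its levels were 8.49, 8.72, 12.41 and 8.37 (old) and 11.58, 10.84, 12.47 and 9.02 (young), in the same order of animals. Old 3 was exceeded by young 3 alone, and young 4 lay 0.30 above old 2.

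mir-409, at chr12:109743158-109743236, measured 7.87, 7.93, 11.75 and 7.88 (old) and 11.51, 9.56, 12 and 8.66 (young). mir-381, at chr12:109726822-109726896, measured 7.27, 7.78, 10.78 and 5.88 (old) and 9.94, 10.01, 11.97 and 7.61 (young). mir-410, the last hairpin of the array at chr12:109743715-109743795, measured 6.90, 7.19, 10.52 and 6.67 (old) and 9.64, 9.28, 11.18 and 6.84 (young). For mir-409 the old libraries other than old 3 lay below all young ones, whereas for mir-381 and mir-410 young 4 fell inside the range of old 1, old 2 and old 4.

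mir-134 is best known from neurons, where it limits the size of dendritic spines by repressing Limk1. Its levels, at chr12:109734139-109734209, were 6.10, 6.75, 10.12 and 6.83 (old) and 9.58, 8.06, 10.35 and 7.03 (young). mir-667 measured 6.18, 6.47, 9.72 and 5.50 (old) and 9.67, 7.22, 10.46 and 6.58 (young). mir-668 measured 5.70, 6.47, 9.19 and 5.32 (old) and 8.51, 9.05, 10.32 and 6.38 (young). In each of these 3 hairpins old 3 was the second highest of all 8 libraries, and in each the lowest library was an old one.

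**Figure D2:**
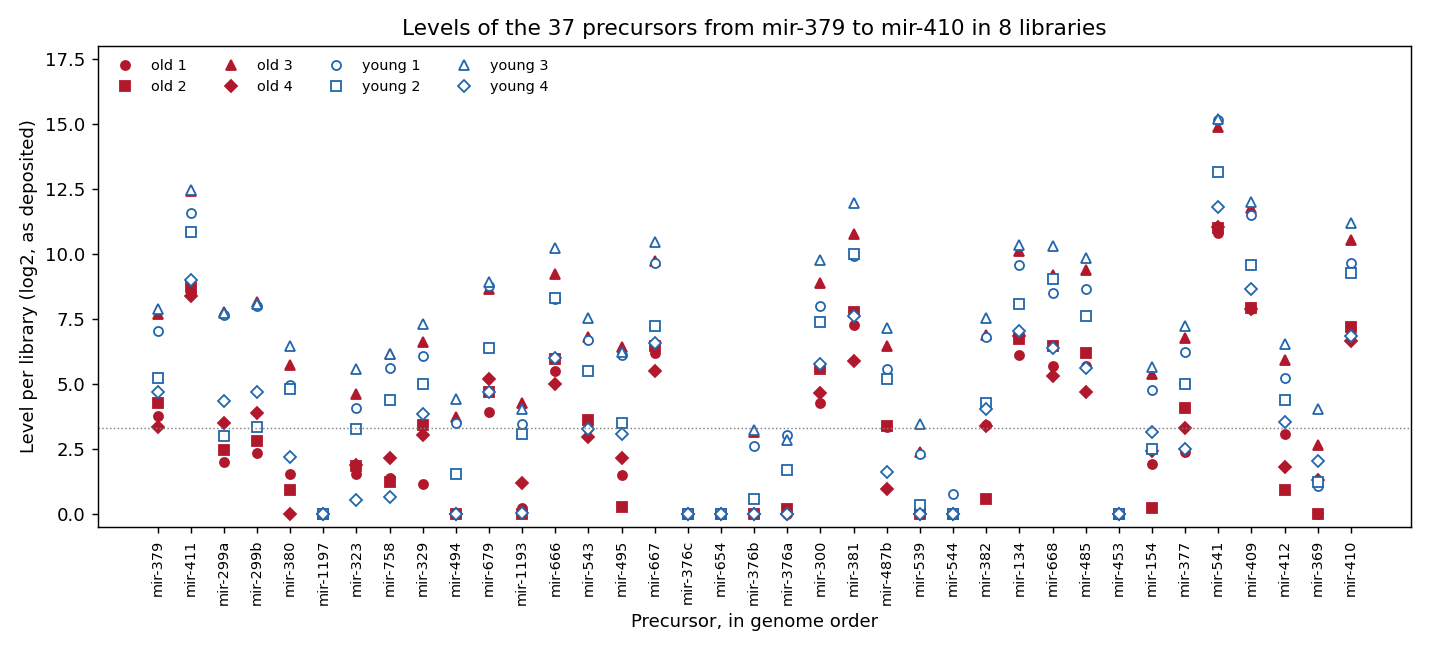
Level (log2, as deposited) of each of the 37 precursors in genome order, in 4 old (filled red) and 4 young (open blue) libraries. The dotted line is the filter value of 3.32 (a linear 10), and old 3 (red triangles) lies with the young libraries while young 4 (blue diamonds) lies low, near 0 or near the other old libraries in most hairpins.

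Several neighbouring hairpins differed in level by more than the age groups did. mir-379, the first hairpin of the array at chr12:109709060-109709125, measured 3.76, 4.27, 7.71 and 3.36 (old) and 7.04, 5.24, 7.90 and 4.69 (young). mir-411 starts 1049 bases beyond it and was higher by 4.33 to 5.60 (log2) in all 8 libraries, 26.7-fold on average. At the other end, mir-409, mir-412, mir-369 and mir-410 follow one another with 52, 49 and 218 bases between them. mir-409 exceeded mir-412 by 4.78 to 6.99 and mir-410 exceeded mir-369 by 4.78 to 8.56, again in all 8 libraries. mir-541 stands 659 bases before mir-409 and was higher by 2.93 to 3.63. The rank of the abundant hairpins was nearly fixed: mir-409 ranked 3 or 4 in every library, mir-410 5 or 6, mir-381 3 to 6 and mir-134 4 to 8. mir-411 was higher than mir-409 in 8 of 8 libraries (difference 0.59 ± 0.35, SD over libraries), but mir-409 over mir-381 (0.74 ± 0.82), mir-381 over mir-410 (0.38 ± 0.52) and mir-410 over mir-134 (0.43 ± 0.51) lay within their spread.

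In 3 of the 6 pairs with a shared seed the hairpins had different levels; of the others, mir-299a and mir-299b share reads, and mir-376c and mir-1197 were at 0 in all libraries. mir-411 exceeded mir-379, as given above, mir-410 exceeded mir-494 by 6.13 to 7.73 in the 8 libraries, counting mir-494 at 0 where it was listed so, and mir-379 exceeded mir-1193 by 2.16 to 4.63. mir-381 exceeded mir-300, whose 3p arm resembles its own, by 1.23 to 2.99. Levels were highest in the Mirg part of the array, with a median of 5.95 over its 12 members against 3.66 over the 25 upstream of it, but each part held members at 0 in all libraries and members above 10.

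The reads of the cluster were led by mir-541 in every library, while their share of the library ranged over 20.5-fold. mir-541 held 61.3%, 59.1%, 65.5% and 68.1% of the members' reads in the old libraries 1 to 4 and 77.2%, 62.4%, 62.6% and 68.4% in the young libraries 1 to 4. Young 1 was the highest and old 2 the lowest, and the means of 63.5 ± 4.04% (old) and 67.7 ± 6.93% (young; SD, n = 4 each) differed by -4.17 percentage points (old minus young), more than the old SD and less than the young SD. Without old 3 and young 4 they were 62.8 ± 4.68% and 67.4 ± 8.47% (SD, n = 3 each). The 5 most abundant members together held 85.4% to 91.9%. mir-411 held 5.96% to 11.4% and mir-409 4.52% to 7.07%. mir-381 had the widest relative range of the 5, from 1.58% in old 4 to 5.86% in young 2.

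**Figure D3:**
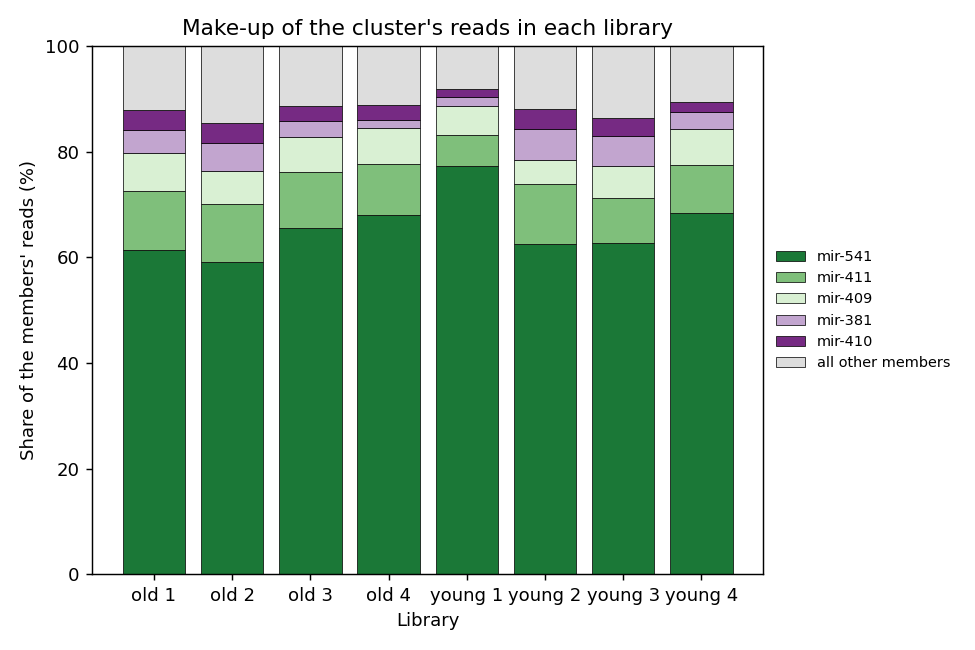
Share of the members' reads (%) taken by the 5 most abundant hairpins and by all others in each library, with mir-299b left out. mir-541 takes 59.1% to 77.2% in every library, old or young, high or low.

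The comparison of old with young libraries was made with limma on the deposited log2 values of all 359 precursors that reached a linear 10 in 4 or more of the 8 libraries, whatever their group. Of the 37 members 24 passed this filter, 13 of them in all 8 libraries, 8 in 5 to 7 and 3 in just 4. The old mean was below the young mean for all 24, as it was for 54% of all compared precursors. The differences (old minus young, log2) ran from -2.56 to -1.10 with a median of -1.66, against a median of -0.05 over all 359. Without mir-299b the count was 23 of 23 and the median -1.58. Of all compared precursors, 46 (12.8%) had a difference of -1 or below, among them all 24 members and 14 other precursors of the Dlk1-Dio3 domain. None of the 24 passed an adjusted p of 0.05, as for all precursors (0%), and none had an unadjusted p under 0.05 (1.11% of all precursors did). The groups overlapped for all 24, with 0.836% of all precursors not overlapping. The median SE of the members was 1.11 against 0.50 over all precursors, and the p-values measure the spread between these libraries, each from 1 numbered mouse.

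mir-380 had the largest difference and the smallest p. This hairpin, at chr12:109711803-109711863, measured 1.56, 0.92, 5.74 and 0 (old) and 4.97, 4.81, 6.48 and 2.20 (young). Old 4, listed at 0, and old 2, with 3.0 reads, were the lowest, while old 3 held 85.4 reads. The means of 2.06 ± 2.54 and 4.62 ± 1.78 (SD, n = 4 each) differed by -2.56 with a 95% interval from -5.46 to 0.34 (limma adjusted p = 0.995, two-sided exact permutation p = 0.171). Without old 3 and young 4, libraries picked by values such as these, the difference was -4.59, which is no evidence of a difference with age.

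The next smallest p belonged to mir-668 and mir-412. The mir-668 difference was -1.90 (95% interval -4.14 to 0.35). mir-412, at chr12:109743289-109743368 in an exon of a Mirg transcript, measured 3.09, 0.94, 5.92 and 1.80 (old) and 5.24, 4.39, 6.54 and 3.55 (young), a difference of -1.99 (95% interval -4.40 to 0.41). Old 3 was again the only old library among the highest 4. limma's adjusted p was 0.995 for each member. Exact permutation p over the 70 arrangements of the libraries, of which the smallest possible is 0.0286, ran from 0.171 to 0.486 for the 24 members.

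mir-377, at chr12:109740510-109740577, had the smallest difference. It measured 2.40, 4.09, 6.79 and 3.32 (old) and 6.24, 5.02, 7.23 and 2.49 (young), -1.10 with a 95% interval from -3.71 to 1.52. Here young 4 lay below old 2 and old 4. mir-541, the most abundant member, differed by -1.89 (95% interval -4.24 to 0.46), which is 3.70-fold more in young libraries on the geometric mean. mir-411 differed by -1.48 (-3.73 to 0.77), mir-409 by -1.58 (-3.88 to 0.73), mir-410 by -1.42 (-3.78 to 0.95), mir-381 by -1.96 (-4.47 to 0.56), mir-134 by -1.31 (-3.50 to 0.89) and mir-379 by -1.44 (-3.80 to 0.92). The intervals of all 24 members included 0 and overlapped one another.

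**Figure D4:**
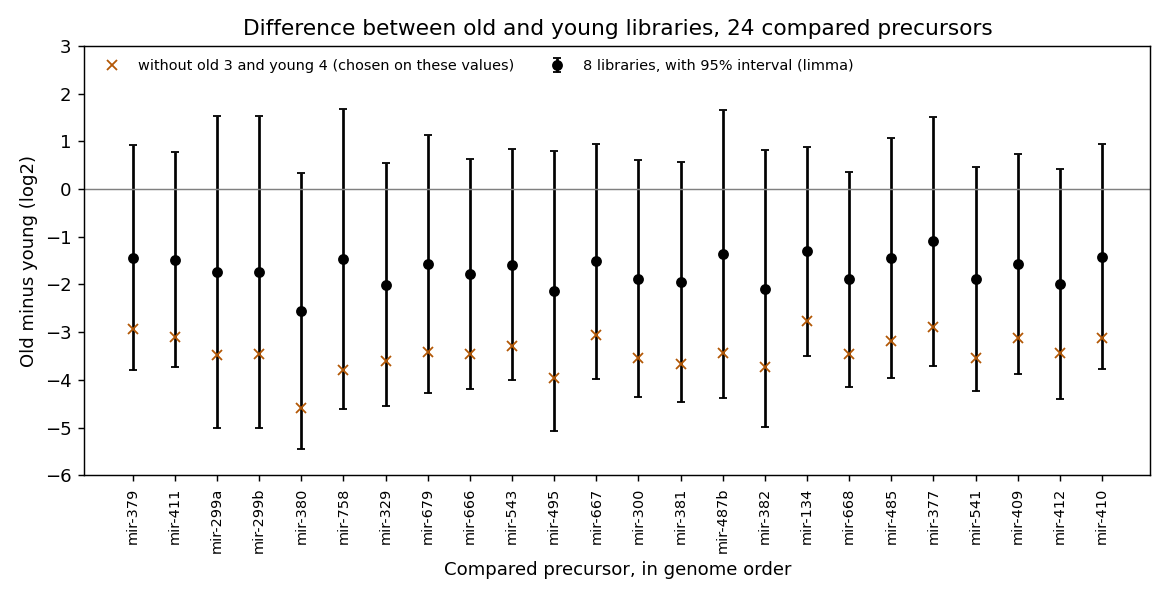
Old minus young (log2) for the 24 compared members in genome order, with 95% intervals from limma on 8 libraries (black), and the difference without old 3 and young 4 (orange crosses), which were chosen on these values. Every black point lies between -2.56 and -1.10 and every interval crosses 0.

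The size of these differences varied with the libraries included. The members' median went from -1.66 to -2.66 without old 3, to -2.43 without young 4 and to -1.06 without young 3, and the old mean was lower for all 24 in each case. Over all precursors the share with a lower old mean was 53.5%, 38.4% and 61.0% in these fits. No member passed without old 3, where 21 of 24 had an unadjusted p under 0.05 (10% of all precursors did), and none passed without young 4, where 6 did (7.52% of all). Without both old 3 and young 4, 33 of all 359 precursors passed in limma (9.19%), among them 21 of the 24 members. The members' median was -3.45, and 21 of 23 passed if mir-299b is not counted. Old 3 and young 4 were picked by their values at this locus, so that count is no evidence of a difference with age.

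Relative to one another the members ran closely parallel. The SD over the 8 libraries was 1.69 to 2.51 for their levels (log2), but 0.23 to 1.10, with a median of 0.55, for a member minus the mean of the 24, a mean to which each member contributes. mir-409 followed the mean most closely (0.23), then mir-411 (0.28) and mir-541 (0.28). The widest were mir-299a (1.10), mir-382 (1.03) and mir-487b (0.94), which held 7.0, 3.0 and 4.0 reads in their lowest library. Relative to the cluster mean, the difference between old and young ran from -0.86 for mir-380 to 0.61 for mir-377, values given without a test. Levels of mir-299a were 1.99, 2.46, 7.77 and 3.51 (old) and 7.66, 2.99, 7.72 and 4.34 (young), so that young 2, which was intermediate for most members, was low here.

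Other microRNAs of the Dlk1-Dio3 domain had a similar course. Of 21 listed precursors upstream of mir-379, 14 were compared, and all 14 were lower in the old mean, with differences of -2.58 to -1.21, a median of -1.59 and none past the threshold. These are not 14 separate measurements. mir-3544 stood above mir-337 by the same amount in every library (4.85 and 4.17 in old 1, 9.18 and 8.50 in young 3). mir-136 and mir-3071 kept a nearly constant difference wherever they were above 0. Counts, medians and means of the 14 hold both names of each such pair. Without old 3 and young 4, 11 of the 14 passed and the median was -3.32. Of all 359 precursors 33 passed in that fit (9.19%), of which 21 were members and 11 were these. Old 3 and young 4 were picked by the values of the members, whose course these precursors share. Their count is thus no evidence of a difference with age either. Their mean per library was 5.49, 6.54, 9.58 and 5.37 (old) and 8.74, 8.41, 10.31 and 6.10 (young), in nearly the same order as the members' means. Their SD about the mean of the 24 members was 0.24 to 1.36, although they did not enter that mean. Of the 321 compared precursors outside both lists and the array none came below 1.32, and the median was 2.25. This measure also depends on range. The median SD of the levels was 0.60 for those 321 against 1.96 for the members, so a precursor that varied little scores high whatever its course.

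The closest precursors outside the domain were the muscle-specific mir-133a-1 (SD of the difference 1.32) and mir-133a-2 (1.32), copies of 1 microRNA, then mir-6997 (1.43), mir-6923 (1.54) and mir-133b (1.61). mir-133a-1 measured 12.99, 13.11, 14.30 and 12.94 (old) and 13.53, 13.92, 14.92 and 11.91 (young). Old 3 and young 3 were highest and young 4 lowest, over a range that was narrower (SD 0.93) than that of any compared member. The muscle list as a whole had 3 of 4 compared precursors with a lower mean in old libraries (median -0.14), and all 5 fibroblast and smooth muscle markers had a higher one (median 0.29). None of them passed the threshold. Without old 3 and young 4 the medians were -0.92 (4 of 4 lower, both mir-133a copies counted) and 0.58 (0 of 5 lower). Over all 359 compared precursors the median in that fit was 0.17, and 38.7% were lower in old. Old 3 and young 4 were picked by the members' values, and mir-133a was the closest to the members' course. These medians are thus no evidence of a difference with age. Their part in the cluster's course was not tested.

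The least abundant members sat at or near the floor. The values that stood just inside the filter were those of mir-495 (1.51, 0.29, 6.42 and 2.15 in old, 6.12, 3.51, 6.23 and 3.08 in young), mir-758 (1.40, 1.25, 6.17 and 2.14 in old, 5.60, 4.40, 6.16 and 0.65 in young) and mir-380, given above. Just outside were mir-154 (1.93, 0.22, 5.40 and 2.44 in old, 4.77, 2.50, 5.67 and 3.15 in young), mir-323 (1.54, 1.84, 4.63 and 1.89 in old, 4.09, 3.29, 5.58 and 0.56 in young) and mir-1193 (0.23, 0, 4.26 and 1.20 in old, 3.45, 3.08, 4.05 and 0.06 in young). In all 6 hairpins old 3, young 1 and young 3 were the highest 3 libraries. Young 2 was the fourth library past the filter value for the 3 hairpins just inside, and stayed under it for the 3 just outside.

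The mir-376 hairpins, precursors known for A-to-I RNA editing that changes the target choice of the mature microRNA, were scarce here. mir-376a measured 0, 0.18, 0.17 and 0 (old) and 3.06, 1.68, 2.85 and 0 (young), at most 17.0 reads. mir-376b measured 0, 0, 3.14 and 0 (old) and 2.61, 0.60, 3.22 and 0 (young), at most 25.0 reads. Old 3 was thus as high as the young libraries for mir-376b but held just 2.0 reads of mir-376a. mir-376c was at 0 throughout, as were mir-654, mir-1197 and mir-453, which allows up to 4 reads per library. How edited reads were counted is not given in the sources used here.

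Among the remaining scarce members, mir-494 reached 4.43, mir-369 4.06, mir-539 3.48 and mir-544 0.77, the last in young 1 alone with 4.0 reads. Of the 13 members not compared, 8 were above 0 in old 3 and 9 in young 1, but 3 in old 1, 3 in old 2, 4 in old 4 and 4 in young 4. The remaining compared members were mir-329, mir-679, mir-666, mir-543, mir-300, mir-487b, mir-382 and mir-485, with differences from -2.09 for mir-382 to -1.36 for mir-487b. All of them were highest in young 3, and each was lowest in an old library.

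Promoter windows of Meg3, Rian and Mirg were scanned for motifs (RefSeq, 250 bases before to 50 after the annotated start, GRCm38.p6). The annotated Meg3 and Rian genes end at 109571729 and 109661716, before mir-379, and hold no member. The GENCODE start of Mirg was not scanned, and whether the members share a promoter was not tested. Meg3 is the first maternally expressed non-coding RNA of the domain, and the window of the first of its RefSeq starts, at chr12:109540746-109541045 (plus strand), has 1 match to the cAMP response element TGACGTCA, in capitals, at base 194.
Meg3: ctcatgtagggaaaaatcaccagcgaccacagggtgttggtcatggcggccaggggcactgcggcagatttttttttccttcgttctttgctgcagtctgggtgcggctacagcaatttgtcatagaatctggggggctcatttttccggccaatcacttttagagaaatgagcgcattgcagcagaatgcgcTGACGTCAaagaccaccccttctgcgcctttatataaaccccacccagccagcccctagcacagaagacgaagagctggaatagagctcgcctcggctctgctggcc
The element, a palindrome, occurs in 1.79% of 32851 mouse promoter windows of this length. The window holds no E-box CANNTG, the site class bound by myogenic factors, on either strand, whereas 72.3% of windows do, and no match to the MEF2 consensus (3.19% of windows). The other Meg3 window, at chr12:109545148-109545447, and that of Rian, at chr12:109603695-109603994, each hold 1 E-box, at bases 79 and 112, and neither the cAMP element nor the MEF2 consensus. The window of the RefSeq start of Mirg, at chr12:109734731-109735030 (plus strand), lies within the array and holds the mir-668 and mir-485 hairpins, in capitals.
Mirg: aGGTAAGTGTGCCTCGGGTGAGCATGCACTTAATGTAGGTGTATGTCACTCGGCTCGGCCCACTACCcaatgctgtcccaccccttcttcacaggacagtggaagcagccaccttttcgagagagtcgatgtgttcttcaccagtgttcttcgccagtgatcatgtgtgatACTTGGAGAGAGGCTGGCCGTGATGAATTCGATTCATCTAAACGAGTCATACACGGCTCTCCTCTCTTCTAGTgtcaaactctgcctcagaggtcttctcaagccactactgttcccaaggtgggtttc
It has 1 E-box at base 162, outside both hairpins, and no match to the other motifs. Matches of letters are given as a description, and the data hold no measurement of Meg3 or Mirg RNA.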

How the data were processed

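Small RNA of myoblasts from 4 old and 4 young mice was read on a GAIIx, per the labels. The authors deposited log2 values, floored at 0, for 1181 precursors in 8 columns; the submitters' processing notes name BWA and mm10, with no further step given in the sources used here. Library sizes of 25.1 to 39.4 M reads were fitted to the steps of the low values; reads cover counting error only. limma 3.58.1 (R 4.3.3, eBayes with trend) was run on the deposited values with no pseudocount, on the 359 precursors that reached a linear 10 in 4 or more libraries, with Benjamini-Hochberg adjustment over all of them. The code was tested on simulated data. The simulated precursors varied independently, with larger differences than the members had in the main fit. That test therefore does not show how limma performs on members that move together. The rest was done in Python 3.11.15 (scipy 1.17.1, pandas 2.3.3, numpy 2.4.6), with matplotlib 3.10.9 for figures. Members named with every value were the 8 most abundant, both ends, mir-134, the mir-376 and mir-299 hairpins, the 3 smallest p, the largest and smallest difference, and 3 on each side of the filter. The members, lists (other Dlk1-Dio3 precursors; muscle, fibroblast and smooth muscle, blood, endothelial, epithelial and neural markers) and tests were chosen with earlier results of these data known. Hairpins outside the domain were ranked by the SD of their difference from the members' mean. Alternatives were another scale, filter, rescaling or variance prior, a block by replicate number, and fits without single libraries.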

Additional observations from a re-analysis of the deposited data

Results flagged for a closer look

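All 37 members, their mean, their summed reads and the share of mir-541 were examined in the old and in the young libraries. In 12 of the 71 sets of 4 libraries that were not all equal, the highest library stood farther from the others than Dixon's 95% critical value allows. In 11 of them this was old 3 among the old libraries. Chance flags about 1 in 20 sets without floored values, and the members share 1 locus and the same libraries, so these are not separate events. For mir-494, mir-376b and mir-539 in old and mir-544 in young libraries, all other libraries of the set were listed at 0. Any value above 0 would be flagged there, so those flags say no more than that. Old 3 measured 14.89 for mir-541, 12.41 for mir-411, 11.75 for mir-409, 10.52 for mir-410, 6.81 for mir-543 and 4.63 for mir-323 (log2). It measured 3.75 for mir-494, 3.14 for mir-376b and 2.37 for mir-539, hairpins listed at 0 in the other 3 old libraries. The mean of the compared members was 8.63 in old 3, and the members' reads came to 4173 RPM. The remaining set was mir-544 in the young libraries, with 0.77 in young 1 and 0 in the others.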

How the results depend on the processing

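No member passed the threshold under another scale, filter, rescaling or variance prior (0 of 24, 13 or 33 members), and neither did any other precursor. The number with a lower mean in old libraries was 24 of 24 in each, except that without a filter it was 33 of 33 (48.5% of all 781 precursors above 0) and with a mean linear value of at least 100 it was 13 of 13. The members' median was -1.60 and -1.23 on log2 of the linear value plus 1 and plus 10, -1.62 after median-ratio rescaling, and -1.45 after quantile normalization, which moved the median of all precursors from -0.05 to 0.09 and the precursors with a lower mean from 194 (54.0%) to 144 (40.1%). Leaving out 1 library at a time gave medians from -2.66 to -1.06, 0 members and 0 precursors past the threshold, and 24 members lower in old, while the share of all precursors lower in old ran from 38.4% (without young 4) to 68.5% (without young 1). Without old 3 and young 4, added after seeing the data, 33 precursors passed, 21 of them members. Of 265 values for 16 named members none reversed, and 14 passed the threshold, all without those libraries. With the replicate number as a block the median was -1.66, 0 members passed (smallest adjusted p = 0.110, limma) and 19 of 24 had an unadjusted p under 0.05 (39 of all 359 precursors). The labels give no pairing by number; deviations of same-numbered libraries correlated at -0.06, 0.43, 0.66 and 0.58 over 359 precursors, and old 1 matched young 4 best. Values near the floor rest on a few reads, and the floor can shift their differences either way. It understates that of mir-380, at 0 in old 4 alone. mir-376a, mir-376b, mir-494 and mir-539 were at 0 in young 4 as well as in old libraries.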

Other observations

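One further precursor in the data lies between mir-379 and mir-410 and was not among the 37. mir-496a measured 0.44, 0, 5.39 and 0 in the old libraries 1 to 4 and 5.08, 0.98, 5.45 and 2.45 in the young libraries 1 to 4, so that old 3, young 1 and young 3 were its highest libraries too.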
